A study of Mus musculus with 9 samples.

Results

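Fatty acid oxidation and ketone body use were followed through 30 genes in nephron progenitor cells that had lost a subunit of mitochondrial complex III. The genes were taken by symbol from a table of 26858 genes and comprise the carnitine shuttle, the acyl-CoA synthetases, the enzymes of mitochondrial and peroxisomal β-oxidation, the electron transfer flavoprotein, the regulator *Ppara*, 3 ketone body enzymes and 2 lipases. RNA-seq was done on eGFP+ cells that were sorted from fetal mouse kidneys at E18.5, late in gestation. The controls were *Six2-Qpc*+/- (n = 4) and the mutants *Six2-Qpc*-/- (n = 5). *Qpc* is the gene that the table lists as *Uqcrq*. Both groups carry a transgene in which the *Six2* promoter drives eGFP fused to Cre recombinase, so that sorting and deletion act in the same cells, and the controls already lack 1 copy of *Qpc*. The labels name neither the sex, litter nor batch of a sample, and they do not say that each sample is a separate animal, so that the p-values measure the spread between these samples.

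In β-oxidation, long-chain fatty acids are first activated to acyl-CoA by synthetases, transferred to carnitine at the outer mitochondrial membrane, carried inward and transferred back to CoA. Each turn of the spiral then removes an acetyl unit through a dehydrogenase, a hydratase, a hydroxyacyl-CoA dehydrogenase and a thiolase. The dehydrogenases hand their electrons to the electron transfer flavoprotein and from there to ubiquinone, upstream of complex III. In the kidney this route is best known as the main fuel supply of the mature proximal tubule. Ketone bodies are made in liver mitochondria from acetyl-CoA, and other tissues turn them back into acetyl-CoA.

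Library totals lay between 22571729 and 23691130 counts in controls and between 21040536 and 23986458 in mutants. *Uqcrq* (ENSMUSG00000044894; GRCm38 chromosome 11, 53427922 to 53430831), which was deleted in the mutants, had 94.1 ± 13.3 counts per 1000000 (CPM; mean ± SD, as throughout) in controls and 21.3 ± 4.45 in mutants, a log2 fold change of -2.14 (SE 0.16, adjusted p = 2.09e-05), with 386 to 637 reads left in each mutant library. Markers of nephron progenitors, among them *Six2*, *Cited1* and *Eya1*, summed to 2180 to 2634 CPM in controls and 2184 to 2574 CPM in mutants, and 0 of 10 passed the test by edgeR (4 at an unadjusted p under 0.05, 1 by DESeq2 and 3 by limma-voom). Proximal tubule markers summed to 3.62 to 8.02 CPM in controls and 2.83 to 18.54 CPM in mutants, where libraries 74 (18.54) and 77 (12.5) lay above every control, and 0 of 4 tested passed the test by edgeR, DESeq2 or limma-voom or had an unadjusted p under 0.05. Markers of committed progenitors summed to 619 to 1067 CPM in controls and 415 to 553 CPM in mutants (4 of 10 lower), stroma markers to 102 to 190 and 255 to 677 CPM (6 of 9 tested higher) and myeloid markers to 2.30 to 7.13 and 5.45 to 62.4 CPM (1 of 4 higher). Muscle markers, of which 1 of 6 could be tested, summed to 220 to 368 CPM in controls and 176 to 330 CPM in mutants. Endothelium markers summed to 2.41 to 5.1 and 3.49 to 6.63 CPM (1 of 3 tested higher). The part of these other cell types in the results was not tested, and in bulk RNA fewer cells of a type and less RNA per cell cannot be told apart. Adipocyte markers summed to at most 3.24 CPM in controls and 5.17 CPM in mutants (1 of 2 tested higher and 1 lower), and *Adipoq* and *Lep* had no more than 3 reads in any library.

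A total of 29 of the 30 genes had enough reads to be tested, and 5 of them passed the test, 1 higher and 4 lower in mutants. The long-chain acyl-CoA synthetase *Acsl4* rose. The very long-chain acyl-CoA dehydrogenase *Acadvl*, the mitochondrial thiolase *Acaa2*, the peroxisomal thiolase *Acaa1a* and the carnitine palmitoyltransferase *Cpt1c* fell. The 5 genes were 17.2% of those tested, against 14.8% of all 14990 genes tested. Higher genes made up 3.45% of the members tested and 7.82% of all genes tested, and lower genes 13.8% and 7.02%. The fitted change was upward in 14 members and downward in 15, with a median log2 fold change of -0.10 (range -0.87 to 0.93) against a median of -0.01 over all genes tested. The median size of the change, whatever its sign, was 0.21 in the members and 0.30 in all genes tested. Control and mutant libraries did not overlap for 6 members, 1 higher and 5 lower. Of all genes tested, 15.2% did not overlap, 7.5% higher and 7.73% lower.

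**Figure D1:**
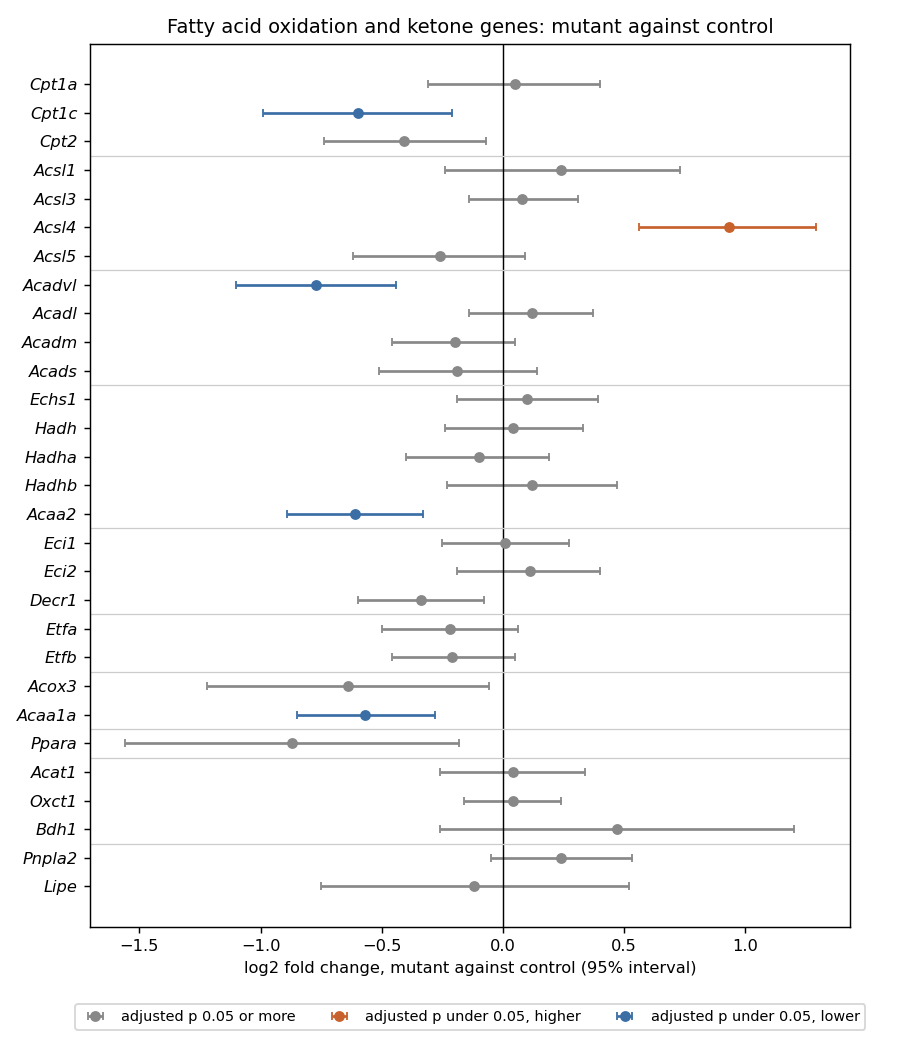
Log2 fold change of each tested member in mutant against control libraries (x axis) by gene (y axis, grouped by role), with 95% confidence intervals as lines, and grey points where the adjusted p was 0.05 or more. *Acsl4* (0.93) stands on the right, *Acadvl*, *Acaa2*, *Acaa1a* and *Cpt1c* (-0.77 to -0.57) on the left, and most intervals cross 0.

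Promoter sequences were read for *Acsl4*, *Acadvl*, *Acaa1a* and *Cpt1c*, 4 of the 5 members that passed the test, because nuclear receptors of the PPAR family, which drive genes of fatty acid oxidation, bind repeats of the half-site AGGTCA. The sequences are RefSeq promoters of GRCm38.p6, each 300 bases long in the direction of the gene from 250 bases before the transcription start to 50 bases after it, and capitals mark a half-site found on either strand. They lie on chromosome X at 142390486 to 142390785 (*Acsl4*, minus strand), chromosome 11 at 70015379 to 70015678 (*Acadvl*, minus strand), chromosome 9 at 119341044 to 119341343 (*Acaa1a*, plus strand) and chromosome 7 at 44974802 to 44975101 (*Cpt1c*, minus strand). 
Acsl4: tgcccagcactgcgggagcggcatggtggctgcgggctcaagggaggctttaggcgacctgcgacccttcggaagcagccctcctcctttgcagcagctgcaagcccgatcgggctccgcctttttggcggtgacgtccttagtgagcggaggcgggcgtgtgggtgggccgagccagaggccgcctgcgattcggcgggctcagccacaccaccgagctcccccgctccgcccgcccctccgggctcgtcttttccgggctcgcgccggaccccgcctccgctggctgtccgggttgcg
Acadvl: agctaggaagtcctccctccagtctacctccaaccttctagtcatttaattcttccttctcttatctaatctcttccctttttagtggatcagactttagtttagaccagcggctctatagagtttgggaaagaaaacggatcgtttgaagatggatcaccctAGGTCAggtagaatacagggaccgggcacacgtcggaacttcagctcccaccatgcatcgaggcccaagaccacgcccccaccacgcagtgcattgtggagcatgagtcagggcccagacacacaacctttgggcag
Acaa1a: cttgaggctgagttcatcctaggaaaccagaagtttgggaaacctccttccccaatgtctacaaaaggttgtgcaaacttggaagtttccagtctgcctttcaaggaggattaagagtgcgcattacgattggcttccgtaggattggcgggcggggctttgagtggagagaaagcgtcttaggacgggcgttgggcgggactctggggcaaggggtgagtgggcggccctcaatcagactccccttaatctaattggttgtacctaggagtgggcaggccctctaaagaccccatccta
Cpt1c: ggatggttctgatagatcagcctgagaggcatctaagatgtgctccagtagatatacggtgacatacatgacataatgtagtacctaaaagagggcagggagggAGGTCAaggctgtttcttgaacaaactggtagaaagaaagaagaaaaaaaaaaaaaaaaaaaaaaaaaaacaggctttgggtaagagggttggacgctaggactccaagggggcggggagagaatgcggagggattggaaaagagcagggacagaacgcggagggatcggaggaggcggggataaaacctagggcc

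The half-site stood at -87 from the start of *Acadvl* and at -146 from that of *Cpt1c*, and in these windows of *Acsl4* and *Acaa1a* it was not found. The printed window of *Acaa1a* lies inside the span of the gene, which begins at 119339676, and so leaves out the bases around that position. RefSeq promoters were held for 27 of the 30 members, 32 promoters in all. The half-site was in 6 of these 32 promoters (*Acadm*, *Acadvl*, *Acsl6*, *Cpt1a*, *Cpt1c* and *Echs1*) and in 5340 of all 32851 mouse promoters (16.3%). No test compared these shares. The full repeat AGGTCANAGGTCA, in which the half-site is contained, was in 13 promoters of all (0.0396%) and in 0 promoters of the members. The motif TGATGNAA, bound by ATF4 with its partners, was in 3.97% of all promoters and, among the members, in that of *Echs1*. Of the 6 genes with the half-site, *Acadvl* and *Cpt1c* were lower in mutants, *Acadm*, *Cpt1a* and *Echs1* did not pass the test, and *Acsl6* was not tested. The promoter of *Acaa2* was not analysed here. *Acsl4* stood apart from the other printed promoters in base composition, with 71.7% G and C against 47.3% to 53.3%. These matches describe letters in a window and no binding was measured.

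Acyl-CoA synthetases trap fatty acids in the cell by coupling them to CoA. ACSL4 prefers arachidonic acid and other polyunsaturated chains and is best known for loading them into membrane phospholipids. *Acsl4* (ENSMUSG00000031278, chromosome X, 142317993 to 142390535) had 11.4, 16.6, 18.3 and 14.3 CPM in control libraries 71, 72, 73 and 76, and 33.4, 26.2, 23.8, 28.7 and 32 CPM in mutant libraries 74, 75, 77, 78 and 79. Every mutant library lay above every control library. The means of 15.2 ± 2.98 and 28.8 ± 3.98 CPM differed by 90.1% on the fitted scale, a log2 fold change of 0.93 (SE 0.17, 95% confidence interval 0.56 to 1.29, adjusted p = 0.00476). The call held in each of 8 alternative analyses and with any of the 9 libraries left out, with adjusted p-values from 4.09e-06 to 0.0171. *Acsl4* is X-linked, and reads of Y-linked genes were present in control libraries 72 and 73 and mutant library 79. Without these libraries the means were 12.9 CPM in 2 controls and 28 CPM in 4 mutants, and with Y-linked expression as a covariate the log2 fold change was 1.03 (adjusted p = 0.00291).

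The other synthetases of the family moved less. *Acsl3*, whose product sits on the endoplasmic reticulum and lipid droplets, had 268 ± 24.9 CPM in controls and 284 ± 18.6 CPM in mutants (log2 fold change 0.08, adjusted p = 0.627). Per kilobase of transcript it was the most abundant of the 5, with 82.1 ± 0.689% of their summed level in controls and 81.9 ± 0.754% in mutants. *Acsl4* made up 3.47 ± 0.506% of that sum in controls and 6.23 ± 0.826% in mutants. *Acsl5* had 32.6 and 27.2 CPM (log2 fold change -0.26, adjusted p = 0.301), and *Acsl1*, the synthetase tied to mitochondrial oxidation in heart and fat, had 8.46 and 10 CPM (log2 fold change 0.24, adjusted p = 0.495). Exons of *Acsl5* share 404 bases with *Zdhhc6* on the opposite strand (119 and 96.3 CPM, log2 fold change -0.30), and the libraries carry no strand information. *Acsl6*, mainly a brain gene, was not tested, with 3 to 14 reads in controls and 0 to 11 in mutants. The ratio of *Acsl3* to *Acsl4* reads within a library, which does not depend on how libraries are scaled, fell from a log2 value of 4.16 ± 0.22 to 3.31 ± 0.20. The difference of -0.85 had an exact permutation p of 0.00794, the smallest that 4 against 5 libraries can give, and an adjusted p of 0.0476 over the 6 gene pairs compared. With the difference of medians in place of means the adjusted p was 0.143.

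**Figure D2:**
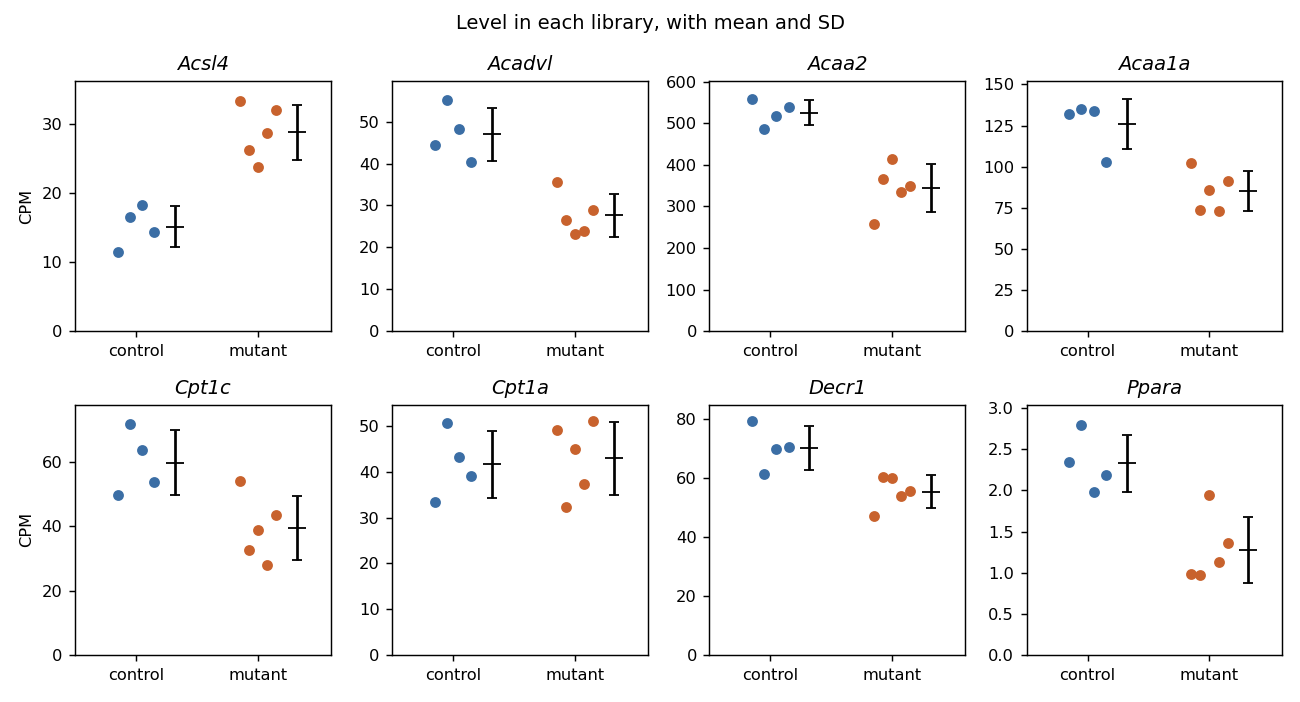
CPM in every library (points) of control and mutant, with the group mean (line) and SD (bar), for the 5 members that passed the test and for *Cpt1a*, *Decr1* and *Ppara*; each panel has its own y axis from 0. Groups are apart for *Acsl4*, *Acadvl*, *Acaa2*, *Acaa1a*, *Decr1* and *Ppara* and overlap for *Cpt1c* and *Cpt1a*.

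The carnitine shuttle begins with carnitine palmitoyltransferase 1, the step that malonyl-CoA inhibits. *Cpt1a* encodes the widely expressed liver-type enzyme, whereas *Cpt1c* encodes a form known from the endoplasmic reticulum of neurons with little transferase activity. *Cpt1c* (ENSMUSG00000007783, chromosome 7, 44959373 to 44974851) had 49.8, 71.9, 63.8 and 53.8 CPM in the control libraries and 54.0, 32.7, 38.9, 28 and 43.6 CPM in the mutant libraries. Mutant library 74 lay within the control range and the other mutant libraries below it. The log2 fold change was -0.60 (SE 0.18, 95% confidence interval -0.99 to -0.21, adjusted p = 0.0426). This call was lost with Y-linked expression as a covariate (adjusted p = 0.0872) and in 7 of the 9 analyses that left out a library, with adjusted p-values between 0.0526 and 0.125.

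*Cpt1a* had 41.6 ± 7.22 CPM in controls and 42.9 ± 8 CPM in mutants, and its log2 fold change of 0.05 (95% confidence interval -0.31 to 0.40, adjusted p = 0.882) did not pass the test. *Cpt2*, which returns the chain to CoA on the inner membrane, had 79.5 CPM in controls and 60.0 CPM in mutants (log2 fold change -0.41, SE 0.15, adjusted p = 0.0897). Per kilobase, *Cpt1a* made up 30.4% to 32.1% of the summed level of *Cpt1a* and *Cpt1c* in the control libraries and 37.1% to 46.4% in the mutant libraries, a description made after the values were seen. The log2 ratio of *Cpt1a* to *Cpt2* reads was -0.95 in controls and -0.48 in mutants (exact permutation p = 0.111, adjusted p = 0.333).

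The 4 straight-chain acyl-CoA dehydrogenases take chains of falling length from *Acadvl* through *Acadl* and *Acadm* to *Acads*. VLCAD, the product of *Acadvl*, is bound to the inner membrane and opens the oxidation of long chains. *Acadvl* (ENSMUSG00000018574, chromosome 11, 70010183 to 70015411) had 44.4, 55.2, 48.2 and 40.3 CPM in the control libraries and 35.7, 26.6, 23.1, 23.9 and 28.9 CPM in the mutant libraries. All mutant libraries were below all control libraries, with mutant 74 nearest to them. From 47.0 ± 6.33 to 27.6 ± 5.05 CPM it fell by 0.77 on the log2 scale (SE 0.15, 95% confidence interval -1.10 to -0.44, adjusted p = 0.00700), and the call held in the 8 alternative analyses and without any single library. Exons of *Acadvl* share 1151 bases with *Dvl2* on the opposite strand, and the libraries carry no strand information. *Dvl2* had 78.5 CPM in controls and 84.2 CPM in mutants (log2 fold change 0.10).

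The dehydrogenases for shorter chains did not pass the test. *Acadl* had 127 and 137 CPM (log2 fold change 0.12, adjusted p = 0.533), *Acadm* 94.4 and 81.9 CPM (-0.20, adjusted p = 0.266) and *Acads* 27.7 and 24.3 CPM (-0.19, adjusted p = 0.423). Per kilobase, *Acadl* held the largest share of the 4 in every library, 44.8 ± 0.506% in controls and 52.4 ± 5.04% in mutants, and *Acadvl* went from 14.7 ± 2.26% to 9.40 ± 2.11%. Electrons from these enzymes pass to the flavoprotein of *Etfa* and *Etfb*. *Etfa* had 166 and 142 CPM (log2 fold change -0.22, adjusted p = 0.261) and *Etfb* 150 and 130 CPM (log2 fold change -0.21, adjusted p = 0.252). The log2 ratio of the subunits was 0.15 ± 0.18 in controls and 0.12 ± 0.18 in mutants, and the difference of -0.03 was smaller than the spread in either group (exact permutation p = 0.770).

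The middle of the spiral is shared between *Echs1* (hydratase), *Hadh* (hydroxyacyl-CoA dehydrogenase) and the trifunctional protein of *Hadha* and *Hadhb*, which works on long chains. *Echs1* was at 238 CPM in controls and 255 CPM in mutants, *Hadh* at 229 and 236, *Hadha* at 77.7 and 72.4, and *Hadhb* at 178 and 193. Their log2 fold changes lay between -0.10 and 0.12 and none passed the test (adjusted p from 0.651 to 0.858). *Hadha* and *Hadhb* stand head to head on chromosome 5, and their promoter windows (30154931 to 30155230 on the minus strand and 30155003 to 30155302 on the plus strand) overlap. The log2 ratio of *Hadha* to *Hadhb* reads varied within the groups more than between them, with -1.20 ± 0.48 in controls and -1.39 ± 0.38 in mutants (exact permutation p = 0.508).

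Thiolases close each turn by releasing acetyl-CoA. *Acaa2* (ENSMUSG00000036880, chromosome 18, 74779197 to 74806207), the mitochondrial medium-chain thiolase, was the most abundant member per kilobase in both groups, with 347 CPM per kilobase in controls and 227 in mutants. It had 558, 487, 517 and 540 CPM in the control libraries and 257, 367, 415, 334 and 350 CPM in the mutant libraries. The lowest control library, 72, was above the highest mutant library, 77. *Acaa2* fell by 0.61 on the log2 scale (SE 0.13, 95% confidence interval -0.89 to -0.33, adjusted p = 0.00970), a change of -34.4%, from 525 ± 30.6 to 345 ± 57.6 CPM. With 6033 to 13089 reads per library, counting error was small beside the spread between libraries. The call held in the 8 alternative analyses and without any single library.

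Peroxisomes shorten very long and branched chains, beginning with an oxidase in place of a dehydrogenase. The peroxisomal thiolase *Acaa1a* (ENSMUSG00000036138, chromosome 9, 119339676 to 119350299) had 132, 135, 134 and 103 CPM in the control libraries and 102, 73.8, 85.8, 73 and 91.4 CPM in the mutant libraries. The groups were apart by a narrow margin, since control 76 and mutant 74 were nearly level. *Acaa1a* fell by 0.57 on the log2 scale (SE 0.13, 95% confidence interval -0.85 to -0.28, adjusted p = 0.0138), a change of -32.4% to 85.3 ± 12.4 CPM in mutants, and without control 73 the adjusted p was 0.0504, the highest of all analyses made. Its close copy *Acaa1b* was at 0.666 CPM in controls and 0.571 CPM in mutants, and how the counting split reads between the copies is not given in the sources used here. Exons of *Myd88* share 290 bases with *Acaa1a* on the opposite strand, and *Myd88* had 11.9 and 12.2 CPM. *Acox3*, an oxidase for branched chains, had 9.69 CPM in controls and 6.20 CPM in mutants (log2 fold change -0.64, SE 0.27, adjusted p = 0.123). The log2 ratio of *Acaa1a* to *Acaa2* was -2.06 ± 0.23 in controls and -2.01 ± 0.41 in mutants (exact permutation p = 0.865).

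**Figure D3:**
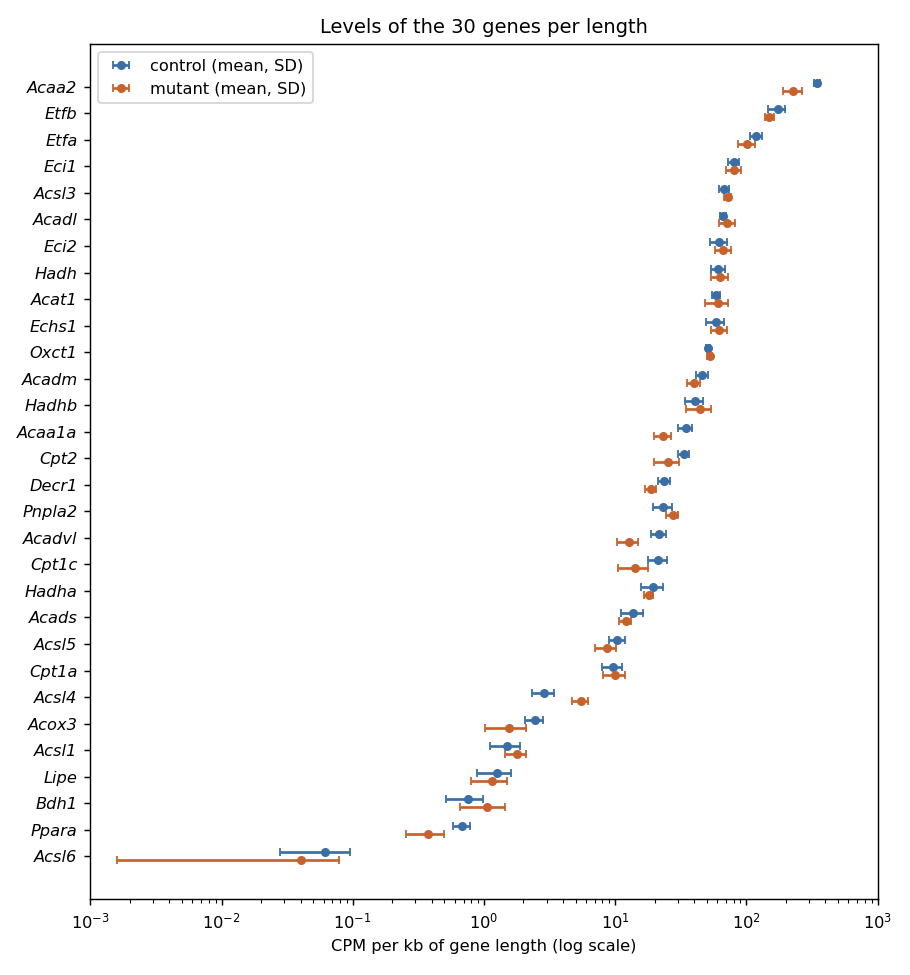
Mean level of each member in CPM per kilobase (log10 x axis) in control and mutant libraries, with points for the group means, bars for the SD and genes in the order of the control mean. Levels span from *Acaa2* (347 in controls) to *Acsl6* (0.0615), and the control and mutant points lie close together for most genes.

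Unsaturated chains need isomerases and a reductase before they enter the spiral. *Decr1*, the reductase, had 79.2, 61.2, 69.8 and 70.5 CPM in the control libraries and 47.0, 60.3, 60.1, 54.0 and 55.7 CPM in the mutant libraries. The mutant libraries were all below the control libraries, although control 72 exceeded mutant 75 by little. The log2 fold change of -0.34 (SE 0.12) had an adjusted p of 0.0700 and did not pass the test, whereas it did with limma-voom and with 1 surrogate variable (adjusted p from 0.00777 to 0.164 over all analyses made). The isomerases *Eci1* (87.3 and 87.7 CPM, log2 fold change 0.01, adjusted p = 0.976) and *Eci2* (98.9 and 107 CPM, log2 fold change 0.11, adjusted p = 0.635) did not pass it either.

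*Ppara*, the receptor that drives many of these genes in liver and mature proximal tubule, was scarce. It had 2.34, 2.80, 1.98 and 2.19 CPM in the control libraries and 0.980, 0.974, 1.94, 1.13 and 1.36 CPM in the mutant libraries, from 47 to 72 and 22 to 38 reads. Groups did not overlap, but control 73 and mutant 77 almost met. The log2 fold change was -0.87 (SE 0.32, adjusted p = 0.0807) and did not pass the test. With genes under 10 counts in any library removed, so that fewer genes were tested, the adjusted p was 0.0450, the lowest of all analyses made, which ranged up to 0.211.

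Ketone body enzymes did not pass the test. *Oxct1*, the CoA transferase that commits ketone bodies to oxidation outside the liver, had 188, 178, 183 and 172 CPM in the control libraries and 176, 193, 187, 179 and 190 CPM in the mutant libraries. Libraries of both groups were interleaved, and the coefficient of variation was 3.89% in controls and 4.00% in mutants. The log2 fold change was 0.04 (SE 0.09, adjusted p = 0.810), with a 95% confidence interval from -0.16 to 0.24. *Acat1*, the thiolase that splits acetoacetyl-CoA, had 201 and 206 CPM (log2 fold change 0.04, adjusted p = 0.886). *Bdh1*, which interconverts hydroxybutyrate and acetoacetate, was low at 2.36 and 3.27 CPM (log2 fold change 0.47, adjusted p = 0.372). The log2 ratio of *Oxct1* to *Bdh1* reads was 6.31 ± 0.44 in controls and 5.91 ± 0.56 in mutants (exact permutation p = 0.270). Of the lipases, *Pnpla2* (adipose triglyceride lipase) had 60.9 and 71.9 CPM (log2 fold change 0.24, adjusted p = 0.238) and *Lipe* (hormone-sensitive lipase) 4.65 and 4.28 CPM (log2 fold change -0.12, adjusted p = 0.824).

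**Figure D4:**
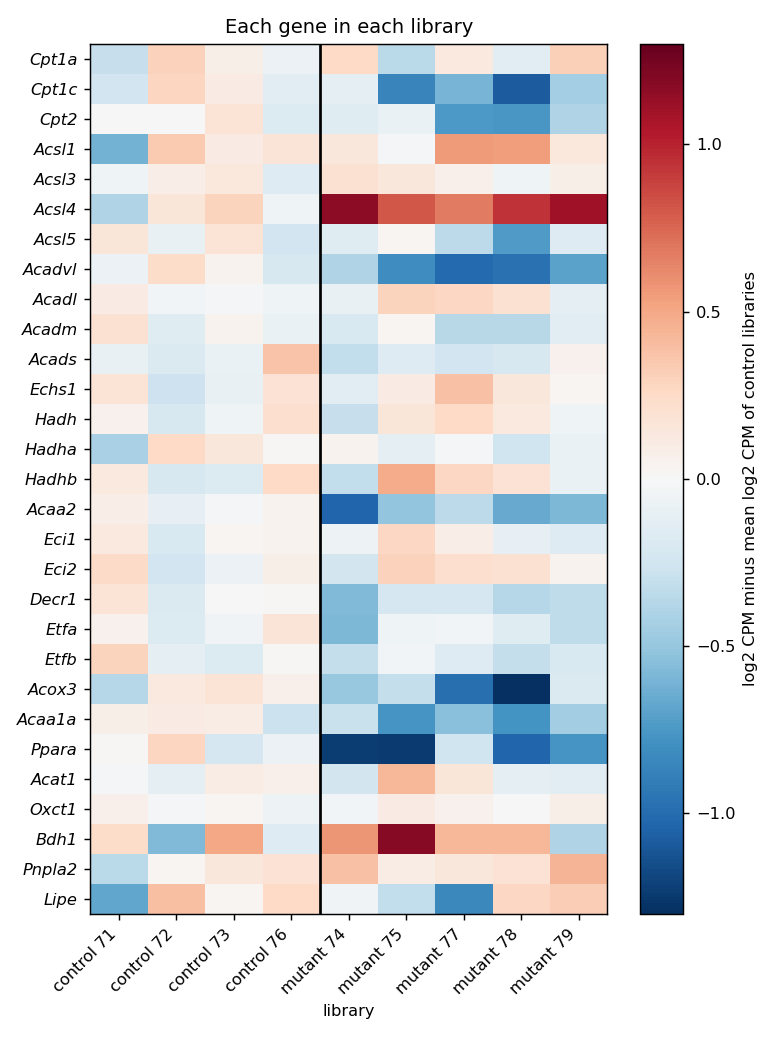
Log2 CPM of each tested member (rows, by role) in each library (columns) minus the mean of the control libraries, on a colour scale from -1.3 to 1.3. *Acsl4* and *Pnpla2* are above the control mean in all 5 mutant libraries, 10 genes, among them *Acadvl*, *Acaa2*, *Acaa1a*, *Decr1* and *Ppara*, are below it in all 5, and the other rows hold both signs.

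Across the 29 tested members, the median difference from the control mean on the log2 scale was -0.16 in mutant library 74, -0.14 in mutants 78 and 79, -0.03 in mutant 75 and -0.01 in mutant 77, and between -0.03 and 0.05 in the control libraries. Mutant 74 had 22 of the 29 members below the control mean, mutants 78 and 79 had 19, and mutants 75 and 77 had 15, against 11 to 17 in the control libraries, with 17 in control 72. Stroma markers were highest in mutant 75 (677 CPM) and myeloid markers in mutant 77 (62.4 CPM). Without mutant 75 the log2 fold changes were 0.96 for *Acsl4*, -0.75 for *Acadvl*, -0.63 for *Acaa2* and -0.52 for *Acaa1a*, and without mutant 77 they were 0.99, -0.71, -0.68 and -0.57, all of them past the test. *Cpt1c* did not pass it without mutant 75 (log2 fold change -0.54, adjusted p = 0.0868) or without mutant 77 (log2 fold change -0.60, adjusted p = 0.0797).

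Lists of 139 other genes of the same and adjoining routes were counted in the same way. Of these, 112 were tested and 30 passed the test (26.8%, against 14.8% of all genes tested), with a median log2 fold change of -0.19. Higher were 9 (8.04%, against 7.82% of all genes tested) and lower 21 (18.8%, against 7.02%). Lower genes were 2 of 5 tested in carnitine and acyl transport, 3 of 15 in other mitochondrial oxidation, 4 of 14 in other peroxisomal oxidation and 2 of 9 acyl-CoA thioesterases, and no gene of these lists was higher. The list of other mitochondrial oxidation also holds genes of amino acid breakdown. Among its lower genes, *Acad8* (adjusted p = 0.0194) and *Gcdh* (adjusted p = 0.0231) are of that kind. Regulators of the PPAR and PGC1 groups (14 tested) had 3 higher and 2 lower, malonyl-CoA control (11) had 1 lower, uptake and binding (18) had 2 higher and 3 lower, and other ketone body genes (10) had 2 higher and 3 lower. In lipolysis and lipid droplets 0 of 11 passed the test by edgeR, 2 had an unadjusted p under 0.05, and 1 passed by DESeq2 and 2 by limma-voom. Of 12 tested PPARα target genes, 2 were higher and 4 lower.

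*Slc25a20*, the carrier that exchanges acylcarnitine for carnitine across the inner membrane, had 49.3, 40.3, 41.0 and 42.0 CPM in the control libraries and 28, 25.1, 30.9, 28 and 24.4 CPM in the mutant libraries. The groups were well apart. It fell by 0.66 on the log2 scale (SE 0.13, adjusted p = 0.00564), and the call held in every alternative analysis and without any single library. *Mlycd*, which degrades malonyl-CoA, went from 21.3 to 11.4 CPM (log2 fold change -0.90, adjusted p = 0.0189), and its call was lost without control 72 and without control 73. *Acad12*, a dehydrogenase-like gene (5.30 and 2.04 CPM, log2 fold change -1.37, adjusted p = 0.0234), and *Acot6*, an acyl-CoA thioesterase (1.88 and 0.771 CPM, log2 fold change -1.28, adjusted p = 0.0461), were lower as well. Both calls were lost with Y-linked expression as a covariate and in 4 and 7 of the 9 analyses without a library, and that of *Acot6* also without a filter on low counts (adjusted p = 0.0722) and with 1 surrogate variable (adjusted p = 0.0637).

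*Pparg*, the PPAR of fat cells, had 0.895, 0.428, 0.590 and 1.27 CPM in the control libraries and 2.56, 6.07, 3.42, 3.15 and 2.77 CPM in the mutant libraries. Every mutant library was above the control range, from 11 to 30 reads in controls and 60 to 137 in mutants. *Pparg* rose by a log2 fold change of 2.17 (SE 0.40, adjusted p = 0.00477), and the call held in every alternative analysis. The coactivator *Ppargc1b* fell from 9.61 to 5.30 CPM (log2 fold change -0.86, adjusted p = 0.0253) with overlapping groups, and its call was lost with Y-linked expression as a covariate and without 5 of the 9 libraries in turn. Among uptake and binding genes, the fatty acid binding protein *Fabp3* was higher (0.688 and 2.97 CPM, log2 fold change 2.11, adjusted p = 0.0302), and its call was lost with Y-linked expression as a covariate and without 3 of the 9 libraries in turn. *Fabp3* rested on 1 to 30 reads in controls and 42 to 95 in mutants. It shares 81 exonic bases with *Zcchc17* on the opposite strand (76.1 and 64.5 CPM).

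*Slc16a6*, a transporter through which ketone bodies leave liver cells, rose from 8.12 to 17.9 CPM (log2 fold change 1.14, adjusted p = 0.0138), although it shares 1052 exonic bases with *Amz2* on the opposite strand (75.4 and 87.7 CPM). *Fgf21*, a secreted hormone of fasting and a target of both PPARα and ATF4, had 0.341, 0.195, 0.379 and 0 CPM in the control libraries and 1.66, 4.29, 2.40, 3.39 and 5.67 CPM in the mutant libraries. The controls rested on 0 to 9 reads and the mutants on 39 to 125. The fitted log2 fold change of 3.90 (SE 0.62, adjusted p = 0.00237) depends on the prior count of the fit. The call held in every alternative analysis that kept the gene and without any single library.

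**Figure D5:**
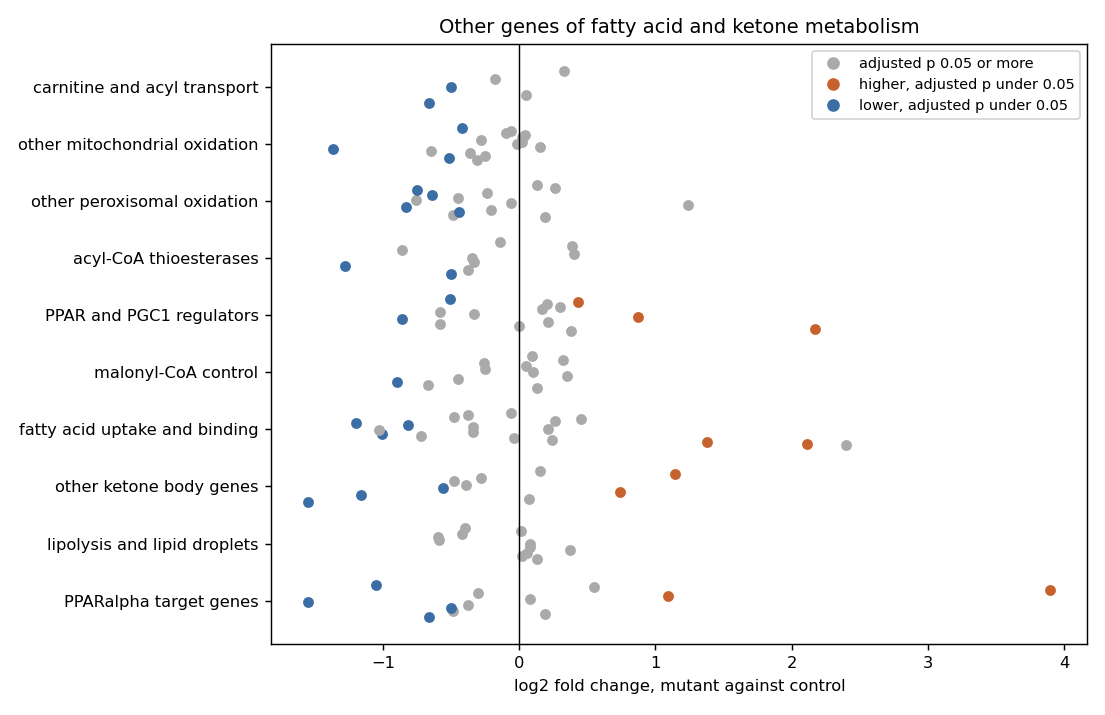
Log2 fold changes (x axis) of the tested genes in each list of other genes of the same and adjoining routes (y axis), 1 point per gene, grey where the adjusted p was 0.05 or more. *Fgf21* (3.90), in the list of PPARα targets, lies farthest to the right, and all points past the test in the lists of carnitine and acyl transport, other mitochondrial oxidation, other peroxisomal oxidation and thioesterases lie left of 0.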

How the data were processed

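RNA was amplified to cDNA directly from sorted cells with an ultra-low-input kit, poly(A)-selected and sequenced without strand information. The submitters' processing notes name STAR, DESeq2 and mm10, and the counter is not given in the sources used here. The authors deposited 1 table with counts per gene and library and FPKM, which equal counts per kilobase and per 1000000 summed counts within 1% for 100% of genes. The FPKM were used only for this check, and the deposited fold change and p-value columns of the authors' own comparison were not used. Genes were matched by symbol. Their identifiers are those of GENCODE M21 (GRCm38), and the gene positions given are those of the deposited table. All 30 symbols were found in GENCODE, 20 with the same span as in the table, and 15 genes share exonic bases with another gene. The spans of *Cpt1c* and *Acaa2* differed between the 2 sources.

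The 14990 genes kept by filterByExpr were compared with edgeR 4.0.16 in R 4.3.3 (TMM, robust quasi-likelihood test, Benjamini-Hochberg over all genes, threshold 0.05). The script was tested on simulated data. CPM were taken over TMM-scaled library sizes, and levels between genes were compared per kilobase. Read ratios of 6 gene pairs were compared by 2-sided exact permutation tests. Alternatives were DESeq2 1.42.0, RLE and upper-quartile factors, 2 other filters, limma-voom (3.58.1), 1 surrogate variable (sva 3.50.0), Y-linked expression as a covariate and each library left out. No 2 libraries of a group agreed within sampling noise (smallest chi-square per gene 13.7). The members and the gene lists were chosen with earlier results of these data known. Named genes are the members, *Uqcrq* and, of each further list, the called genes with the largest rise and the largest fall. Some genes that this rule names are not reported here.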

Additional observations from a re-analysis of the deposited data

Results flagged for a closer look

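In control replicate 76, *Acads* had 35.4 CPM, far from the 24 to 25.8 CPM of the other controls. In the same library *Acaa1a* had 103 CPM, against 132 to 135 CPM in the other controls. These were the only 2 of 96 groups of libraries tested in which 1 library stood apart by Dixon's criterion, and chance gives about 1 in 20 (4.8 here). Without control replicate 76 the log2 fold change of *Acaa1a* was -0.64 (adjusted p = 0.00896).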

How the results depend on the processing

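limma-voom with quality weights called more genes (2413 higher and 2455 lower of all genes, 7 members lower, 14 other pathway genes higher and 35 lower); the cause was not tested. With 1 library left out, calls ranged from 555 to 1603 higher and 491 to 1533 lower of all genes, 2 to 5 members lower, and 6 to 10 higher and 10 to 26 lower of the other pathway genes. Leaving out control 71, 72 or 73 or mutant 78 moved the counts over all genes by over 1.5 times (693, 688, 555 and 721 higher, and 661, 584, 491 and 615 lower). Members lower were 2 without control 73, and other pathway genes lower were 10 without control 72, 11 without control 73 and 13 without mutant 78. *Acsl4* remained the only member called higher in all of these analyses.

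The log2 ratio of *Acsl3* to *Acsl4* differed by -0.88 as medians (adjusted p = 0.143) and by -0.91 to -0.74 with 1 library left out (adjusted p from 0.0857 to 0.171, with fewer splits to permute). The ratio of *Acaa1a* to *Acaa2* differed by -0.18 as medians and by -0.12 to 0.13 with 1 library left out, and that of *Etfa* to *Etfb* by -0.11 to 0.03. Signs turned only in members near 0: with limma-voom *Cpt1a* (-0.05), *Acsl3* (-0.01) and *Acat1* (-0.01), with 1 surrogate variable *Echs1* (-0.01), *Hadh* (-0.08), *Hadhb* (-0.06), *Eci1* (-0.07), *Eci2* (-0.02), *Acat1* (-0.07) and *Lipe* (0.02), with Y-linked expression *Hadh* (-0.01) and *Eci1* (-0.05), and with upper-quartile factors *Eci1* (-0.02). With 1 library left out the ranges were -0.05 to 0.15 (*Cpt1a*), -0.02 to 0.13 (*Hadh*), -0.06 to 0.05 (*Eci1*), -0.08 to 0.10 (*Acat1*) and -0.30 to 0.02 (*Lipe*). Of the other comparisons of single genes with an alternative, 611 kept direction and call, 52 lost a call and 7 gained one. No paired analysis was possible because the groups share no replicate numbers. *Ppara*, *Bdh1*, *Acsl6*, *Fgf21*, *Pparg* and *Fabp3* rest on few reads. So do *Acot6* (10 to 28 reads in mutants) and *Acad12* (22 to 57 reads in mutants).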
